A study of Mus musculus with 3 samples.

Results

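The imprinted Dlk1-Dio3 domain of mouse chromosome 12 carries a large cluster of microRNA genes, and 43 of them were followed here among the 2201 mouse genes with an annotated GENCODE microRNA hairpin. They were chosen by name and position. A read was counted for a member if it was 20 to 24 nt long and matched the member's hairpin in full, in sense and without mismatch. Each read was assigned to the 5′ arm (5p) or the 3′ arm (3p) of the hairpin, since the mature microRNA is cut from either arm. The members lay between positions 109563692 and 109743795 of chromosome 12 in the GRCm38 build, all on the plus strand, in 180104 bases.

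The small RNA libraries were made from mature sperm, from testis and from uterus, the tissues both adult, of the outbred CD1 strain, and no label names an engineered allele or a treatment of the animals. Sperm were taken from the cauda epididymis, where they are stored after leaving the testis, and had been kept in a detergent buffer that lyses somatic cells. Each group was a single library from an unstated number of animals, so no difference given here has a replicate check or a p-value. The intervals are 95% intervals of the counts (Clopper-Pearson for shares, Poisson for levels, conditional binomial for ratios) and cover counting error only, because PCR reads without molecular identifiers are not independent molecules.

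Imprinted genes are expressed from the chromosome of a single parent. The microRNAs of this domain are made from the maternally inherited chromosome, from long noncoding transcripts that include Meg3, the antisense transcript of Rtl1, Rian and Mirg, while the protein-coding genes Dlk1, Rtl1 and Dio3 are expressed from the paternal chromosome. The cluster is specific to placental mammals and is best known for expression in placenta, embryo and brain. A mature microRNA finds its target messenger RNAs mainly through the seed, bases 2 to 8 from its 5′ end, so a change of start or of a base within the seed changes the targets it can pair with.

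A few arms carried most of the cluster's reads, and the results turn on their seeds, their 5′ starts, their 3′ ends and a base at position 5. Their mature sequences in RefSeq (GRCm38.p6) are given 5′ to 3′ with the seed in capitals.
miR-379-5p: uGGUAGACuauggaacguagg
miR-541-5p: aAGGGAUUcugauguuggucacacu
miR-434-3p: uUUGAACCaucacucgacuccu
miR-127-3p: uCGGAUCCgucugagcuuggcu
miR-134-5p: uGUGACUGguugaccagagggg
miR-411-5p: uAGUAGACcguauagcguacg
miR-382-5p: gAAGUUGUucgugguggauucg
miR-433-3p: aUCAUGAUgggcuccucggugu
The table held 82 mature sequences of the 43 members, and these had 79 distinct seeds. It had none for miR-376c-3p, miR-487b-3p, miR-539-3p and miR-485-5p, so the seeds of these arms were not compared. The 3 seeds held by more than 1 member were AUGUAAC, in miR-379-3p and miR-411-3p, GGUUGUC, in miR-410-5p and miR-494-5p, and UGGAUAU, in miR-376b-5p and miR-376c-5p. Reads of these 6 arms were few, with a sum of 1 read for AUGUAAC in sperm, none in testis and 15 in uterus. Most of the cluster's reads thus came from arms whose RefSeq seed is in none of the other member arms listed there. Some arms began elsewhere than at the RefSeq base, and the seeds of the reads themselves were not compared between members.

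Total depth was 15690722 sperm reads, 23783785 testis reads and 15876066 uterus reads, of which 415794, 187649 and 10382037 were hairpin reads, meaning reads of 20 to 24 nt on any annotated hairpin. Hairpin reads were thus 2.65% of the sperm library, 0.789% of the testis library and 65.4% of the uterus library, and let-7 and miR-98 took 26.9%, 31.0% and 77.8% of them. Lists of microRNAs used as markers of cell types took different shares of the libraries. The 5 germ cell microRNAs (miR-34c and miR-34b, miR-449a, miR-202, miR-184) held 7.94% of sperm hairpin reads, 47.7% of testis and 0.0537% of uterus hairpin reads, where miR-202 had no read. The 6 genes of smooth muscle microRNAs (Mir143, Mir145a, Mir1a-1, Mir1a-2, Mir133a-1 and Mir133a-2) held 4.81%, 1.77% and 7.16%. The 5 of epithelia held 9.47%, 0.0171% and 0.0601%, and the 5 of leukocytes 0.363%, 0.0245% and 0.0279%. The 4 genes of stromal fibroblast microRNAs held 0.0996%, 0.366% and 4.42%, and the 4 of neurons 0.0212%, 0.0506% and 0.000135%, in the order sperm, testis and uterus. Members of a list did not all go the same way. Of the germ cell list, miR-184 had 14839 reads in sperm and 556 in testis, and miR-34c 17325 and 83767. Of the neuronal list, miR-124a had 2 reads in sperm and 75 in testis, and miR-9 86 and 20. The smooth muscle list had 20013 reads in sperm and 743761 in uterus. Of these, Mir143 had 17707 and 124147, and Mir1a-1 had 1765 and 597976. Whether cells other than sperm contributed to the cluster's reads in the sperm library was not tested. In bulk RNA, fewer cells of a type and less of a microRNA per cell cannot be told apart.

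The cluster was a small part of the microRNAs in all libraries. It had 579 sperm reads, 127 testis reads and 5797 uterus reads. As a share of hairpin reads this was 0.139% in sperm (0.128 to 0.151%), 0.0677% in testis (0.0564 to 0.0805%) and 0.0558% in uterus (0.0544 to 0.0573%). Sperm over testis, the ratio of shares was 2.06 (1.70 to 2.51). It was 2.49 for sperm over uterus (2.29 to 2.72) and 1.21 for testis over uterus (1.01 to 1.45). Direction depended on what the reads were divided by. Per 1000000 reads of the whole library, the cluster had 36.9 reads in sperm, 5.34 reads in testis and 365 reads in uterus. With let-7 and miR-98 left out of the denominator, its share was 0.190% for sperm, 0.0982% for testis and 0.252% for uterus, a sperm over uterus ratio of 0.756. The testis over uterus ratio was 0.390 with that denominator, 0.676 with TMM factors of edgeR and 0.688 with size factors of DESeq2, all below 1. Without Mir379, the sperm share was 1.38 times that of testis and 1.69 times that of uterus.

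More members were seen in uterus than in sperm or testis, where a member was called seen with at least 4 reads. There were 12 of 43 in sperm, 9 in testis and 33 in uterus. At least 1 read was found for 26 members in sperm, 28 members in testis and 40 members in uterus, and Mir673, Mir679 and Mir758 had no read in any library. Depth bears on this order: thinned to the hairpin reads of the testis library, the sperm library would be expected to show 8 members and the uterus library 9.40, beside the 9 seen in testis. A count of 0, taken at 3 reads, allowed, per 1000000 hairpin reads, up to 7.22 sperm reads, 15.99 testis reads and 0.289 uterus reads.

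In all 3 libraries the same 6 members were seen: Mir127, Mir379, Mir382, Mir411, Mir434 and Mir541. Mir134, Mir300, Mir329, Mir369 and Mir380 were seen in sperm and uterus, and Mir299a, Mir409 and Mir433 in testis and uterus. Mir381 passed the 4 reads in sperm alone, with 7 reads there, 1 in testis and 3 in uterus. Another 19 members passed in uterus alone. The remaining 9 (Mir370, Mir377, Mir412, Mir493, Mir539, Mir673, Mir679, Mir758 and Mir770) had at most 3 reads in every library.

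**Figure D1:**
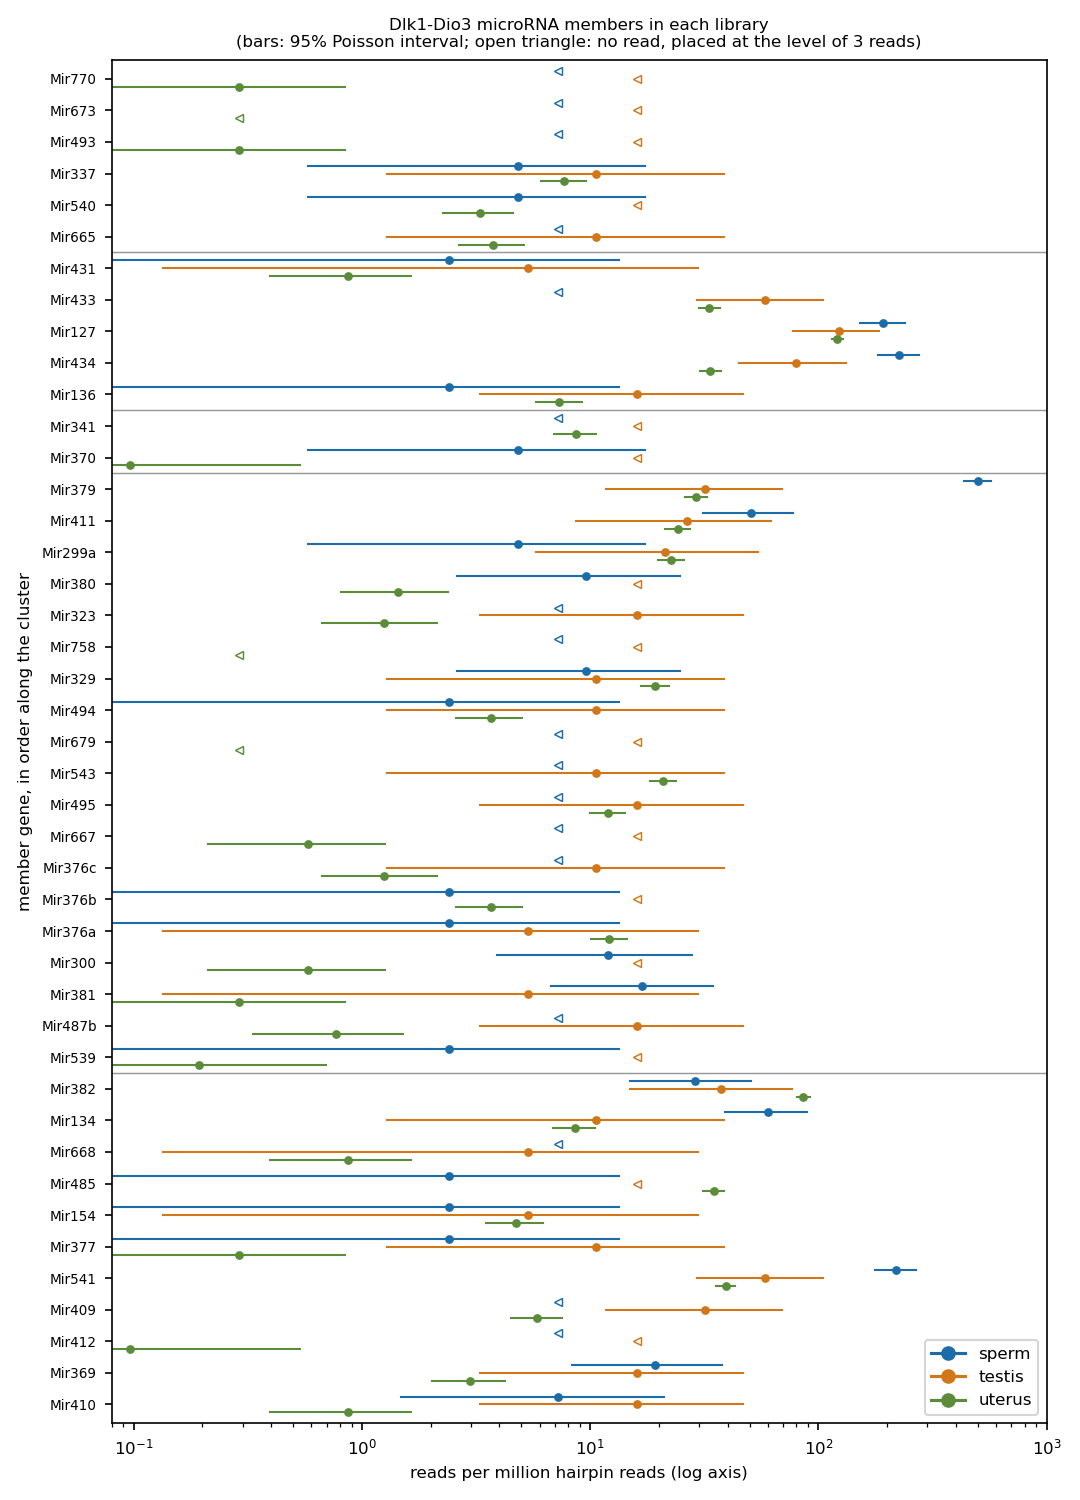
Reads per 1000000 hairpin reads (log axis) for the 43 members, in their order along the cluster from top to bottom, in sperm, testis and uterus, with 95% Poisson intervals; an open triangle marks no read, at the level that 3 reads would have, and grey lines part the 5 stretches of the cluster. Mir379, Mir434, Mir541 and Mir127 stand highest in sperm, and the long testis intervals reflect 127 reads in all.

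Along the chromosome the reads came from 3 of 5 stretches. The 5 members inside Rtl1, on the strand opposite to it (Mir431, Mir433, Mir127, Mir434 and Mir136), gave 30.4% of the cluster's reads in sperm (26.7 to 34.3%), 41.7% in testis (33.0 to 50.8%) and 35.2% in uterus (33.9 to 36.4%). The 19 members between Rian and Mirg, which begin with Mir379, gave 44.04% in sperm (40.0 to 48.2%), 26.8% in testis (19.3 to 35.4%) and 27.6% in uterus (26.4 to 28.7%). The 11 members inside Mirg gave 24.5% in sperm, 28.3% in testis and 33.0% in uterus. By contrast, the 6 members between the start of Meg3 and Rtl1 gave 0.691%, 3.15% and 2.74%, and the 2 members inside Rian (Mir341 and Mir370) gave 0.345% in sperm, no read in testis and 1.57% in uterus. Within a stretch the members differed widely: among the 5 opposite Rtl1, Mir127 had 1258 reads in uterus and Mir431 had 9. The interval also held 21 other annotated hairpin genes, of which 4 had any read, 2 sperm, 3 testis and 29 uterus reads in all.

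Sperm and uterus differed most in which members led. These shares within the cluster do not depend on the denominator, but they count exact matches only. Mir379 made up 35.9% of the cluster's reads in sperm (32.0 to 40.0%), 4.72% in testis (1.75 to 9.999%) and 5.23% in uterus (4.67 to 5.83%). Mir434 made up 16.2% in sperm (13.3 to 19.5%), 11.8% in testis (6.76 to 18.7%) and 6.02% in uterus (5.42 to 6.66%). Mir541 made up 15.7% in sperm (12.8 to 18.9%), 8.66% in testis (4.40 to 15.0%) and 7.02% in uterus (6.38 to 7.71%). For these 3 members the sperm and uterus intervals did not overlap, and for Mir379 the sperm and testis intervals did not either. With Mir379 left out, Mir434 made up 25.3%, 12.4% and 6.35%, and Mir541 24.5%, 9.09% and 7.41%, in the order sperm, testis and uterus.

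Mir127, whose mature microRNA pairs perfectly with the Rtl1 messenger RNA from the opposite strand, led in both tissues, at 13.8% in sperm (11.1 to 16.9%), 18.1% in testis (11.8 to 25.9%) and 21.7% in uterus (20.6 to 22.8%). With Mir379 left out of the cluster's reads, Mir127 made up 21.6% in sperm, 19.01% in testis and 22.9% in uterus. Mir382 made up 2.07% in sperm (1.08 to 3.59%), 5.51% in testis (2.24 to 11.03%) and 15.4% in uterus (14.5 to 16.3%). Mir433, which also lies opposite Rtl1, had none of the 579 sperm reads, which allows a share of up to 0.518%, while it made up 8.66% of testis reads (4.40 to 15.0%) and 5.97% of uterus reads (5.37 to 6.61%). Mir485 had 1 read in sperm, none in testis and 361 in uterus, where it made up 6.23% (5.62 to 6.88%).

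Sperm reads were the most concentrated. The leading 4 members gave 81.7% of the cluster in sperm, 47.2% of it in testis and 50.3% of it in uterus. To reach 90% of the reads took 7 members in sperm, 20 in testis and 15 in uterus. Measured against miR-127-3p within the same library, miR-379-5p had 2.63 reads per miR-127-3p read in sperm (2.02 to 3.46), 0.273 in testis (0.0905 to 0.694) and 0.246 in uterus (0.216 to 0.279). For miR-411-5p, made from the next hairpin along the chromosome after Mir379, the same quantity was 0.253 in sperm (0.147 to 0.418), 0.227 in testis (0.0672 to 0.615) and 0.195 in uterus (0.169 to 0.224). These counts leave out reads with guanosine in place of the adenosine at position 5. With those reads counted, miR-411-5p had 0.494 reads per miR-127-3p read in sperm (0.327 to 0.733), 0.227 in testis (0.0672 to 0.615) and 0.195 in uterus (0.169 to 0.225), and the sperm and uterus intervals do not overlap.

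**Figure D2:**
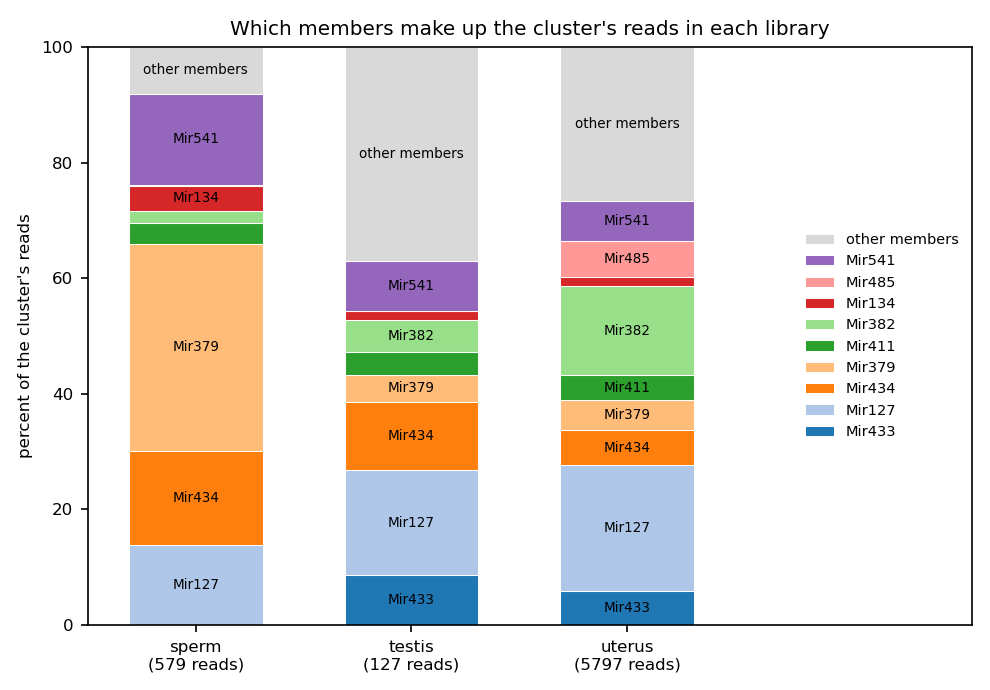
Share of the cluster's reads (percent) taken by each member that was among the leading 6 in any library, stacked in their order along the cluster, in sperm (579 reads), testis (127) and uterus (5797). Mir379 takes 35.9% of the sperm bar and about as little of the testis bar (4.72%) as of the uterus bar (5.23%), and Mir433 is missing from the sperm bar.

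Levels of single arms are given as reads, with ratios per hairpin read, for arms with at least 20 reads in both libraries together. An arm was called when the ratio was at least 4-fold, with no test. The arms with most reads in sperm were miR-379-5p with 208 reads, miR-541-5p with 91, miR-434-3p with 86, miR-127-3p with 79, miR-134-5p with 25, miR-411-5p with 20, miR-382-5p with 11, miR-434-5p and miR-369-3p with 8 each and miR-381-3p with 7. In testis miR-127-3p led with 22 reads, followed by miR-434-3p with 15, miR-433-3p and miR-541-5p with 11 each, miR-379-5p with 6, and miR-382-5p, miR-411-5p and miR-409-3p with 5 each. Next came miR-136-5p, miR-299a-5p, miR-410-3p, miR-487b-3p and miR-495-3p, with 3 testis reads each. In uterus miR-127-3p had 1223 reads, miR-382-5p 450, miR-382-3p 441, miR-541-5p 406, miR-433-3p 341, miR-434-3p 337, miR-379-5p 301, miR-411-5p 238, miR-485-5p 235 and miR-543-3p 216. The 6 arms miR-127-3p, miR-379-5p, miR-382-5p, miR-411-5p, miR-434-3p and miR-541-5p were thus among the leading arms of every library.

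Between sperm and testis, 6 member arms had enough reads. Of these, 2 were higher in sperm by the 4-fold rule and none was higher in testis, where 29.0% of all 248 hairpin arms were higher in sperm and 22.2% higher in testis by the same rule. The 33.3% of member arms called is near that background. The 2 called arms were miR-379-5p, with 208 sperm reads, 6 testis reads and a ratio of 15.6 (7.07 to 43.1), and miR-134-5p, with 25 and 2 reads and a ratio of 5.64 (1.41 to 49.1). miR-541-5p had a ratio of 3.73 (1.99 to 7.74) and miR-434-3p of 2.59 (1.48 to 4.82). The ratios of miR-411-5p, 1.81 (0.657 to 6.16), and of miR-127-3p, 1.62 (0.9998 to 2.73), had intervals that reached below 1. Of the 6 arms, 5 passed the read minimum through sperm alone, and miR-433-3p, with no sperm read and 11 testis reads, did not enter, so this count does not give the direction of the cluster as a whole.

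Between sperm and uterus, 31 member arms had enough reads, nearly all of them through uterus. Of these, 6 passed the 4-fold limit towards sperm and 6 towards uterus. Each is 19.4% of the member arms. These counts depended on the scaling: 5 arms were higher in sperm and 7 higher in uterus with TMM factors, 2 and 8 with DESeq2 size factors, 2 and 15 without let-7 and miR-98, and 0 and 26 per read of the whole library. By the same rule, per hairpin read, 43.6% of all 374 arms were higher in sperm and 12.8% higher in uterus. The other scalings move all arms alike, and those 2 shares do not apply to them. The share of all arms called with them is not given, so their member counts have no background. The median log2 ratio was -0.25 for the member arms, with 12 of them at a bound because sperm had no read, and 1.49 for all arms. Leaving out the arms at a bound, the medians were -0.49 and 1.54. The value of -0.25 is itself a bound, that of miR-341-3p. Most member arms passed the read minimum through uterus alone. Neither their counts nor their median therefore gives the direction of the cluster as a whole.

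Higher in sperm were miR-379-5p, at 17.3 times the uterus level (14.4 to 20.7), miR-434-5p at 16.6 times (5.90 to 44.3, 8 and 12 reads), miR-369-3p at 9.08 times (3.495 to 21.2, 8 and 22 reads), miR-134-5p at 7.01 times (4.31 to 11.03), miR-434-3p at 6.37 times (4.97 to 8.10) and miR-541-5p at 5.597 times (4.41 to 7.04). Per read of the whole library, each of these 6 was lower in sperm than in uterus. Without let-7 and miR-98 in the denominator, miR-379-5p and miR-434-5p stayed past 4-fold, with log2 ratios of 2.39 and 2.34, while those of miR-369-3p, miR-134-5p, miR-434-3p and miR-541-5p were 1.46, 1.09, 0.95 and 0.76. Both arms of Mir434 were among the 6, the 3p arm with 86 reads in sperm and 337 in uterus.

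Higher in uterus were miR-382-3p, at 0.0566 times the uterus level in sperm (0.00143 to 0.317, 1 and 441 reads), miR-485-5p at 0.106 (0.00268 to 0.598, 1 and 235 reads), miR-376a-3p at 0.198 (0.00498 to 1.12, 1 and 126 reads), miR-299a-3p at 0.206 (0.00518 to 1.17, 1 and 121 reads) and miR-299a-5p at 0.219 (0.00550 to 1.25, 1 and 114 reads). For the last 3 the interval reached above 1. miR-433-3p had no read in sperm and 341 in uterus, so its level was at least 4.55-fold lower in sperm, taking 3 reads for none. By that rule miR-543-3p, miR-485-3p and miR-495-3p were not called, with no read in sperm and 216, 126 and 123 in uterus. An arm with 1 sperm read was taken at 1, so the called arms are not necessarily those most biased towards uterus. At the uterus level 13.7 reads of miR-433-3p and 17.7 of miR-382-3p would have been counted in sperm. miR-382-5p, from the same hairpin as miR-382-3p, had 11 reads in sperm and 450 in uterus, a ratio of 0.610 (0.303 to 1.10).

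Between testis and uterus, 30 member arms had enough reads, nearly all of them through uterus. Of these, 2 were at least 4-fold higher in testis and none was higher in uterus, where 29.1% of all 361 arms were higher in testis and 8.59% higher in uterus by the same rule. With TMM factors or DESeq2 size factors the counts were 0 higher in testis and 3 higher in uterus. Without let-7 and miR-98 they were 0 and 7, and per read of the whole library 0 and 30. These scalings move all arms alike, and the share of all arms called with them is not given. miR-409-3p had 5 testis reads and 40 uterus reads, a ratio of 6.92 (2.13 to 17.5), and miR-369-3p had 2 and 22 reads, a ratio of 5.03 (0.573 to 20.5). Per read of the whole library both were lower in testis, with log2 ratios of -3.58 and -4.04. For miR-434-3p, with 15 and 337 reads, the ratio was 2.46 (1.36 to 4.12). Medians of the log2 ratio were 0.62 for member arms and 1.15 for all arms, or 0.56 and 0.72 without arms at a bound. Since the member arms entered nearly all through uterus, their counts and medians do not give the direction of the cluster as a whole. With 127 reads over 43 members, differences of most members between testis and the other libraries were not detectable at this depth.

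**Figure D3:**
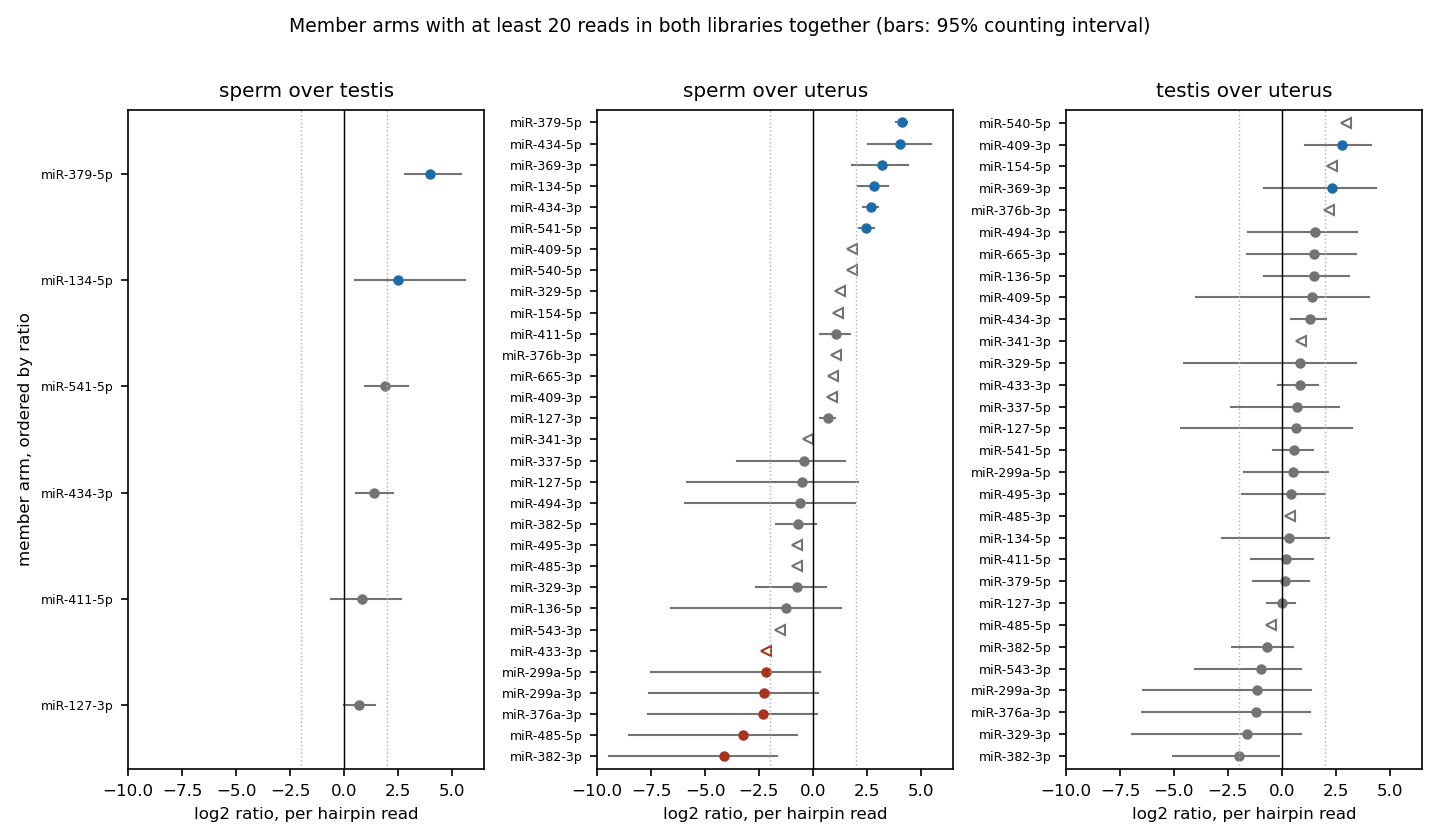
Log2 ratio per hairpin read of each member arm with at least 20 reads in both libraries together, for sperm over testis, sperm over uterus and testis over uterus; bars are 95% counting intervals, open triangles pointing left are upper bounds for arms without a read in the first library, and dotted lines mark 4-fold. Blue arms were called higher and red arms lower in the first library of the pair, 6 of each between sperm and uterus.

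The major arm was the same wherever at least 20 reads allowed a comparison. Mir379, Mir134 and Mir541 gave the 5p arm in 100% of 208, 25 and 91 reads in sperm and in 99.3%, 100% and 99.8% of their reads in uterus. Mir127 gave the 5p arm in 1.25% of reads in sperm (0.0316 to 6.77%), 4.35% in testis (0.110 to 21.9%) and 2.78% in uterus (1.95 to 3.85%). No member with at least 20 reads in 2 libraries had a different major arm in them. In uterus, where 24 members had at least 20 reads, some used both arms: the 5p arm gave 50.5% of 891 reads of Mir382 (47.2 to 53.8%), 48.5% of 235 reads of Mir299a (42.0 to 55.1%) and 65.1% of 361 reads of Mir485 (59.9 to 70.0%). For Mir382 the 5p arm gave 11 of 12 reads in sperm and 5 of 7 in testis, or 91.7% (61.5 to 99.8%) and 71.4% (29.0 to 96.3%). The sperm interval lay above that of uterus, on 12 reads, under the minimum of 20 used elsewhere.

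Reads of most arms began at the RefSeq base, and those of a few arms began elsewhere. Of the leading arms, miR-127-3p started at the RefSeq base in 100% of sperm reads, 100% of testis reads and 99.8% of uterus reads, and miR-379-5p in 100% in sperm and 99.3% in uterus. miR-411-5p had 2 starts, and the earlier, 1 base upstream of RefSeq, held 60% of 20 exact reads in sperm and 51.7% of 238 in uterus. With the reads that carry guanosine at position 5 counted, 19 sperm reads began upstream and 20 at the RefSeq base. In uterus 99.1% of the 441 reads of miR-382-3p began 2 bases upstream of the RefSeq start and none began at it, which moves the seed. The most frequent read of that arm, with 230 copies, is given in DNA letters with its own bases 2 to 8 in capitals, after the RefSeq sequence.
miR-382-3p, RefSeq: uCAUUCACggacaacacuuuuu
miR-382-3p, leading read in uterus: aATCATTCacggacaacact
miR-485-3p likewise had mixed starts in uterus, with 23.8% of 126 reads at the RefSeq base, and miR-409-3p had 52.5% of 40.

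Lengths of member reads, pooled over arms, differed between libraries. Reads of 20 or 21 nt were 67.5% of member reads in sperm (63.5 to 71.3%), 30.7% in testis (22.8 to 39.5%) and 38.5% in uterus (37.3 to 39.8%). Over all hairpins without those that resemble transfer RNA genes, the values were 21.8%, 9.95% and 13.6%. The arm that led in sperm, miR-379-5p, is 21 nt long in RefSeq, so the pooled shares depend on which arms led. For miR-127-3p, where the start was fixed, 20.3% of 79 reads in sperm were the full 22 nt, against 95.5% of 22 reads in testis and 87.7% of 1223 in uterus. The leading read of miR-127-3p in sperm, with 43 copies, lacked the last base of the leading read in testis and uterus, which had 21 and 1073 copies.
miR-127-3p, leading read in sperm: tCGGATCCgtctgagcttggc
miR-127-3p, leading read in testis and uterus: tCGGATCCgtctgagcttggct
Not all arms were shorter in sperm. The mean length of miR-134-5p was 21.88 nt in sperm and 21.13 nt in uterus, and that of miR-411-5p was 21.35 nt in sperm and 20.72 nt in uterus. Of 6 member arms with at least 20 reads in sperm and uterus, 4 were shorter in sperm, beside 51.6% of 161 arms over all hairpins.

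Reads that matched a hairpin but for their last base do not enter the counts above, and what produced that base was not tested. Beside the exact reads they made up 21.1% of member reads in sperm, 21.6% of those in testis and 28.2% of those in uterus, and 10.8%, 9.32% and 11.6% over all hairpins. The changed last base was uridine or adenosine in nearly all of them. For miR-379-5p it was uridine in 80.2% of 86 such reads in sperm (70.2 to 88.0%) and in 16.5% of 261 in uterus (12.2 to 21.5%), and adenosine in all but 1 of the others. miR-134-5p had uridine in 90% of 10 in sperm (55.5 to 99.7%) and in 31.8% of 22 in uterus (13.9 to 54.9%). miR-127-3p went the other way, with uridine in 25% of 32 in sperm (11.5 to 43.4%), 57.1% of 14 in testis (28.9 to 82.3%) and 63.5% of 892 in uterus (60.2 to 66.6%). As counted, the share of uridine in sperm against uterus differed in direction between arms of the same cluster. A uridine added to the 21 nt form of miR-127-3p gives the exact 22 nt read and does not count as changed. That form was 54.4% of the arm's exact reads in sperm and 6.70% in uterus, so such uridines could be missed more often in sperm. For miR-341-3p, a microRNA inside Rian with a repeated sequence, 365 uterus reads ended in a base that differs from the hairpin and 89 matched in full, so the counts of exact matches leave out most of its reads. The same holds for miR-495-3p in uterus, with 151 such reads and 123 exact reads. A base added to the microRNA and a base that differs between CD1 and the annotated hairpin cannot be told apart here. Leaving out miR-341-3p, the share with a changed last base stayed at 21.1% in the sperm library and was 20.1% in the testis library and 25.1% in the uterus library. Among leading arms this share was uneven. It was 28.8% in sperm and 42.2% in uterus for miR-127-3p, 29.3% and 46.4% for miR-379-5p, and 3.37% and 12.9% for miR-434-3p. Shares within the cluster and reads per miR-127-3p read therefore depend on the exact match.

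**Figure D4:**
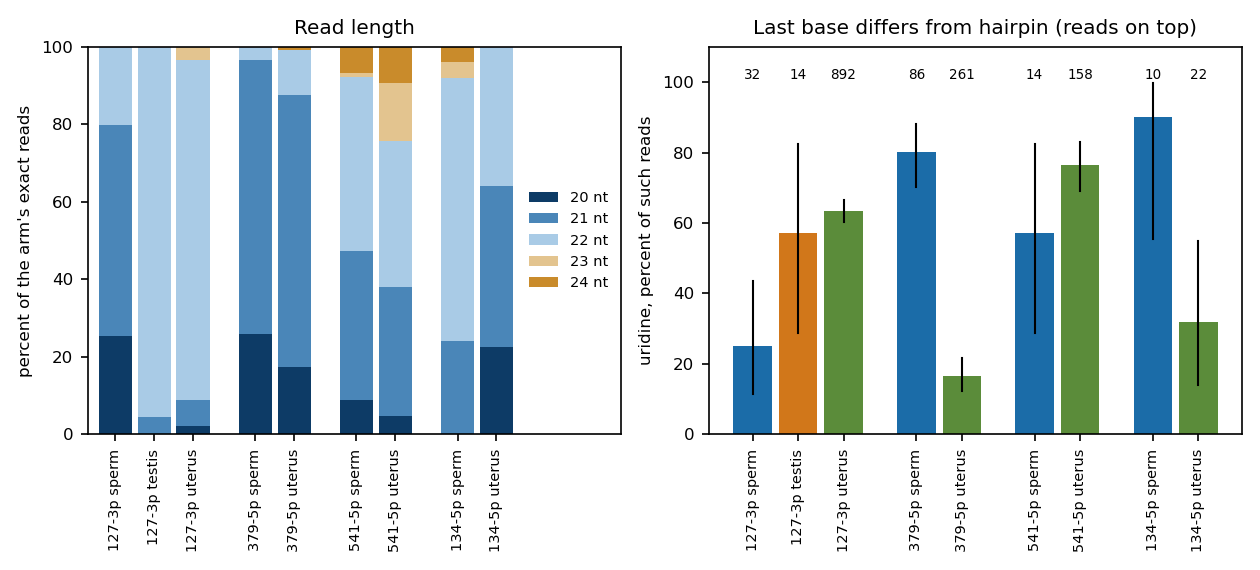
Left, the share of reads of 20 to 24 nt (percent of the arm's exact reads) for miR-127-3p, miR-379-5p, miR-541-5p and miR-134-5p in each library with at least 20 reads; right, the share of uridine among reads that differ from the hairpin at the last base only, with 95% Clopper-Pearson intervals and the number of such reads on top. miR-379-5p carries uridine in 80.2% of these reads in sperm and 16.5% in uterus, while miR-127-3p shows 25% in sperm and 63.5% in uterus. Over all hairpins, not drawn, the share was 50.6% in sperm and 23.2% in uterus.

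Inner substitutions, away from the first base and the last 3 bases of a read, showed a single site that stood apart. Adenosines in double-stranded RNA can be changed to inosine by ADAR enzymes, and inosine is read as guanosine. Several microRNA precursors of this cluster are known to be edited in this way in mouse brain. Sperm had 35 member reads with 1 inner substitution, and 24 of them (68.6%) were A to G, against 1 of 3 in testis and 13 of 113 (11.5%) in uterus. Per 10000 adenosines read, A to G was found 98.5 times in sperm, 20.4 times in testis and 5.96 times in uterus. Of the 24 in sperm, 19 fell on the same adenosine.

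That adenosine is position 5 of miR-411-5p, inside its seed, with positions counted from 1 at the RefSeq 5′ end. The change A5G was read in 19 of 39 reads in sperm (48.7%, 32.4 to 65.2%), in none of 5 in testis and in 1 of 239 in uterus (0.418%). It was present in sperm with either start, in 12 of 20 reads that began at the RefSeq base (60%, 36.1 to 80.9%) and in 7 of 19 that began 1 base upstream (36.8%, 16.3 to 61.6%). The reads are given here in DNA letters, with position 5 in capitals.
miR-411-5p, 8 reads in sperm, 33 in uterus: tagtAgaccgtatagcgtacg
miR-411-5p A5G, 11 reads in sperm, 1 in uterus: tagtGgaccgtatagcgtacg
miR-411-5p from 1 base upstream, 7 reads in sperm, 44 in uterus: atagtAgaccgtatagcgtacg
miR-411-5p from 1 base upstream with A5G, 7 reads in sperm, none in uterus: atagtGgaccgtatagcgtacg
None of the 3 distinct A5G reads of 20 to 24 nt matched a GENCODE transcript in full, and none of 1738 mature mouse microRNAs in the RefSeq table has the seed that A5G gives. With the A5G reads added, miR-411-5p would have 39 reads in sperm in place of 20. This site was singled out after its values were seen, since the arm had 20 exact reads in sperm, and what produced the guanosine was not tested.

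The seeds of miR-379-5p and miR-411-5p differ in their first base only, and miR-379-5p has an adenosine at the same position. There A5G was read in 3 of 211 reads in sperm (1.42%, 0.294 to 4.10%), in none of 6 in testis and in 1 of 302 in uterus. In sperm this was the only adenosine with at least 1% A to G in an arm with at least 100 exact reads, of which sperm had 1 such arm, and uterus had none in its 16. Over all adenosines with at least 10 reads, sperm had 26 positions in 7 arms, 4 of them with any A to G read, and the highest after miR-411-5p was 3.85%. Uterus had 160 positions in 37 arms, 11 with any A to G read and at most 7.14%, from 1 read, and testis had 12 positions with none.

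**Figure D5:**
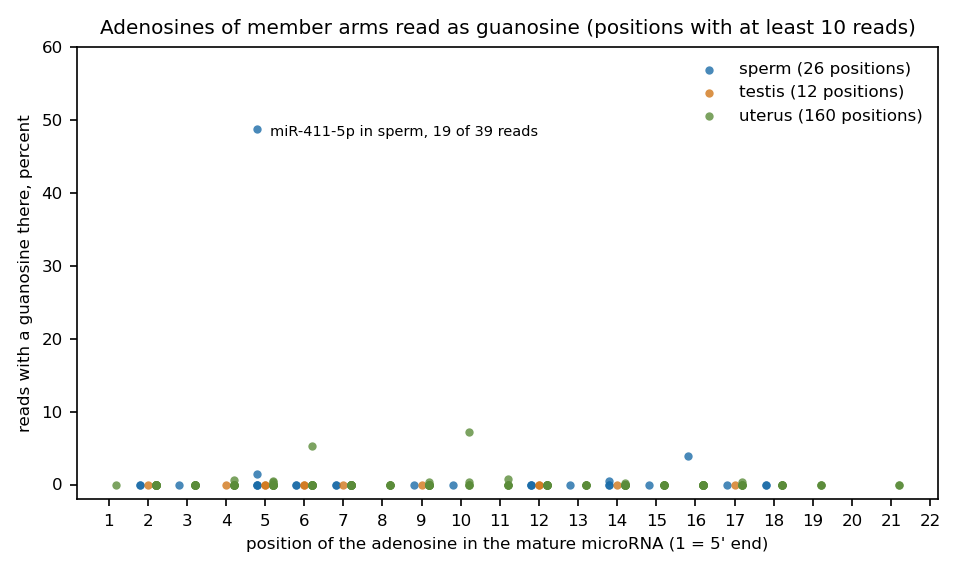
Percent of reads with guanosine in place of each adenosine of the member arms (vertical) by its position in the mature microRNA (horizontal), for positions with at least 10 reads in sperm, testis or uterus; each point is a position of an arm in a library. Position 5 of miR-411-5p in sperm, with 19 of 39 reads, lies far above the others, which are at most 7.14%.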

How the data were processed

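Libraries were made by adapter ligation and RT-PCR, per the labels' protocols. The deposited tables give distinct read sequences with whole-number counts; the authors' trimming, size selection and tools are not stated in the sources used here, and the submitters' processing notes name the build mm9. Counts were used as deposited, at the depths given in the report, after leaving out 1 line without a sequence in sperm and 1 in testis. Groups follow the source in the labels.

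Reads of 20 to 24 nt were matched in full and in sense to the 2202 GENCODE microRNA hairpins (GRCm38); coordinates are GRCm38 and were not converted. Reads were assigned to an arm by the side of the hairpin's midpoint, which equalled the nearest RefSeq mature start for 6112 of 6112 reads on the 39 members with both arms in the table. No read of a member also matched another hairpin. Hairpin reads were the denominator, a ratio against 0 reads used 3 reads and is a bound, and arms with at most 3 reads in each library of a pair have no ratio. Each read covers a whole mature microRNA, so levels were not divided by length; adapter ligation depends on sequence, which limits comparisons between arms. Reads with 1 substitution were kept apart from the exact counts.

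The members, lists and rules were chosen with earlier results of these data known. Named are the 10 member arms with most reads in each library, arms at least 4-fold apart with at least 20 reads in both libraries together, members whose major arm differs, and adenosines with at least 1% A to G in arms with at least 100 reads; miR-411-5p at position 5 was added after its values were seen. Alternatives changed 1 choice at a time: read length, single-read sequences, shared reads, 1 substitution, the start, the denominator, edgeR TMM and DESeq2 size factors, read minimums and the fold. Leaving out Mir379, miR-341-3p, hairpins that resemble transfer RNA genes and, for ratios, let-7 and miR-98, and counting the A5G reads of miR-411-5p, were added after seeing the data. Matching and the 4-fold rule were tested on simulated data. There the ratios were scaled by the arms simulated without change, so the choice of hairpin reads as denominator was not tested. Python 3.11.15 with numpy 2.4.6, scipy 1.17.1 and matplotlib 3.10.9, and R 4.3.3 with edgeR 4.0.16 and DESeq2 1.42.0, were used.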

Additional observations from a re-analysis of the deposited data

How the results depend on the processing

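No paired analysis was possible because each group had 1 library. The cluster had 579 sperm, 127 testis and 5797 uterus reads, and the ratios to uterus changed direction with the denominator. For each change of a result given here the cause was not tested, except where fewer reads or arms entered by construction. The share of all arms called is given for the main rule only. Counts of member arms under the other settings therefore have no background beside them. Counting only reads on no hairpin of another gene moved no result, and leaving out hairpins that resemble transfer RNA genes changed no share, ratio or count of arms beyond its interval or 1.5 times.

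Divided by all reads, the cluster made up 0.00369% in sperm, 0.000534% in testis and 0.0365% in uterus, with ratios of 6.91 (sperm over testis), 0.101 (sperm over uterus) and 0.0146 (testis over uterus). The 4-fold rule then called 6 arms higher in sperm against testis, 0 higher in sperm and 26 higher in uterus, and 0 higher in testis and 30 higher in uterus. The log2 ratios of sperm over uterus were then -0.52 for miR-379-5p, -0.57 for miR-434-5p, -1.44 for miR-369-3p, -1.81 for miR-134-5p, -1.95 for miR-434-3p and -2.14 for miR-541-5p, and those of testis over uterus -3.58 for miR-409-3p and -4.04 for miR-369-3p.

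Without let-7 and miR-98 in the denominator the shares were 0.190% (sperm), 0.0982% (testis) and 0.252% (uterus), with ratios of 0.756, sperm over uterus, and 0.390, testis over uterus. This called 2 arms higher in sperm and 15 higher in uterus, and 0 higher in testis and 7 higher in uterus. TMM factors gave a ratio of 1.61 for sperm over uterus, and of 0.676 between testis and uterus, with 0 arms higher in testis and 3 higher in uterus. DESeq2 size factors gave 1.59 between sperm and testis, 1.10 between sperm and uterus and 0.688 between testis and uterus, with 2 arms higher in sperm against uterus, 0 higher in testis and 3 higher in uterus. Relative to hairpin reads, these 4 scalings moved the log2 ratios of all arms for sperm over uterus by -4.63, -1.72, -0.63 and -1.19, and for testis over uterus by -6.37, -1.64, -0.84 and -0.82. Without Mir379 the share was 0.0892% in sperm and 0.0529% in uterus, and the ratios 1.38 for sperm over testis and 1.69 for sperm over uterus.

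Without single-read sequences the testis share was 0.0465%, and the ratios were 2.86 for sperm over testis and 0.846 for testis over uterus. This left 2 arms higher in uterus against sperm and 1 higher in testis, and 90.9% A to G among inner substitutions in sperm. Reads starting within 2 bases of a mature start gave 0.169% in sperm and 0.124% in testis, and ratios of 1.36 between sperm and testis, 2.95 between sperm and uterus and 2.17 between testis and uterus, with 1 arm higher in sperm against testis and 7 higher in testis against uterus. With 1 substitution allowed the share was 0.160% in sperm and 0.0684% in uterus, and 1 arm was higher in sperm against testis and 2 higher in uterus against testis. Reads of 18 to 26 nt gave 0.0593% in uterus and 1 arm higher in uterus against testis.

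With at least 1 read, 26 members were seen in sperm and 28 in testis, and with at least 10 reads 7 and 4. Thinned to the testis library's hairpin reads, 9.40 members were expected in uterus. At 2-fold, 4 arms were higher in sperm than in testis, 7 higher in testis than in uterus and 4 higher in uterus than in testis. With at least 100 reads in both together, 1 arm was higher in sperm than in testis and 0 higher in testis than in uterus. With a minimum of 4 reads in whichever library was higher, 1 was higher in testis than in sperm, 10 higher in sperm than in uterus and 8 higher in testis than in uterus.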
